A study of Rattus norvegicus with 9 samples.

Results

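The SLC25 family holds the carriers that move metabolites, nucleotides, cofactors and ions across the inner mitochondrial membrane. Genes of this family were taken from a read count table of cultured rat heart muscle cells by their symbol (Slc25a followed by a number), with at least 10 reads in 3 or more samples, and the acylcarnitine carrier Slc25a20 was not included. This gave 34 genes among the 17327 rows of the table. They were grouped by the substrate that each carrier is known or thought to transport, into 10 classes.

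The cells were neonatal rat ventricular myocytes, heart muscle cells taken into primary culture from newborn animals, and were kept for 48 hours with 50 µM phenylephrine, an agonist of alpha-1 adrenergic receptors, with 10 nM insulin-like growth factor 1 (IGF1), or with vehicle. Phenylephrine and IGF1 are both used to induce hypertrophic growth of such cells. RNA was sequenced from 3 samples in each group, and the labels do not say whether these came from separate cultures, so a p-value rests on the variation among these libraries only, and that may be technical variation. The reference for both treatments was the same set of 3 vehicle samples, and phenylephrine was also compared directly with IGF1.

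An SLC25 carrier is a small protein of the inner membrane that is encoded in the nucleus and imported through the translocases of both mitochondrial membranes. Most carriers work as exchangers, so that entry of a substrate is tied to the exit of another. In heart muscle the most prominent of them serve oxidative phosphorylation, by bringing ADP and phosphate into the matrix and ATP out. Others feed the malate-aspartate shuttle, supply cofactors such as coenzyme A and S-adenosylmethionine, or bring iron and glutathione into the matrix.

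Levels are in CPM, the read count divided by a library size that was adjusted by the trimmed mean of M-values, and totals of 31274396 to 48505265 reads per sample meant that 1 CPM rested on 29.1 to 51.6 reads. IGF1 replicate 1 stood apart: chi-square per degree of freedom over all tested genes was 82.4 and 85.1 between it and the other IGF1 samples, against 2.97 to 7.43 for the other 7 pairs of samples within a group. Among the carriers, its level differed over 1.25-fold from the mean of the other IGF1 samples in 6 genes. The difference was log2 1.15 in Slc25a26 and log2 0.35 to 0.62 in size in Slc25a40, Slc25a14, Slc25a15, Slc25a42 and Slc25a35. A count of 6 was not particular to this sample: the same count was 6, 5 and 4 for phenylephrine replicates 1, 2 and 3. It was 0, 2 and 1 for the vehicle samples, and 2 and 3 for IGF1 replicates 2 and 3. The median size of the difference over the 34 carriers was nevertheless largest for IGF1 replicate 1, log2 0.13 against 0.05 to 0.09 for the other samples. Calls of carriers that change without this sample are given beside their genes.

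Cardiomyocyte markers were present in every sample. Their summed level over 10 genes was 58174 to 58804 CPM with phenylephrine, 51345 to 64602 CPM with IGF1 and 46064 to 49824 CPM with vehicle. The sum over 7 fibroblast markers (Col1a2, with at most 10 reads, was not tested) was 4656 to 4751, 5896 to 6807 and 5018 to 6001 CPM in the same order of groups, and that over 6 smooth muscle and pericyte markers was 2468 to 2517, 1524 to 2056 and 1736 to 1826 CPM. Endothelial markers (6 genes) summed to 43.9 to 55.8 CPM with phenylephrine, 23.2 to 29.8 CPM with IGF1 and 63.3 to 72.9 CPM with vehicle, and macrophage and leukocyte markers (6 genes) to 35.9 to 44.6, 38.4 to 42.7 and 37.1 to 43.3 CPM. Of these lists, phenylephrine raised 6 and lowered 4 of the cardiomyocyte markers, 1 and 4 of the fibroblast, 0 and 1 of the endothelial, 3 and 1 of the smooth muscle and 0 and 2 of the macrophage markers. IGF1 raised 6 and lowered 1, 3 and 1, 0 and 4, 0 and 2, and 0 and 0 of the same lists in the same order. By the same test, described with the carriers below, phenylephrine raised 27.9% and lowered 28.9% of all tested genes, and IGF1 raised 24.7% and lowered 23.4%. The part that these other cells play in the values below was not tested, and in such bulk RNA fewer cells of a type and less RNA per cell cannot be told apart.

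Each gene was tested with edgeR's quasi-likelihood test over all 9 samples, with Benjamini-Hochberg adjustment over all 11873 genes tested, and is said to have risen or fallen where its adjusted p was under 0.05. All 34 carriers passed the filter on low counts. Of the 34, 6 rose and 11 fell with phenylephrine against vehicle (17.6% and 32.4%), where 27.9% of all tested genes rose and 28.9% fell. With IGF1 against vehicle 7 rose and 10 fell (20.6% and 29.4%), where 24.7% of all tested genes rose and 23.4% fell. In the direct comparison 6 were higher and 10 lower with phenylephrine than with IGF1 (17.6% and 29.4%), where 27.1% of all tested genes were higher and 27.1% lower. In either direction, 17, 17 and 16 of the 34 carriers passed in these comparisons, against 56.8%, 48.1% and 54.2% of all tested genes. Whether the carriers' shares differ from those of all genes was not tested, and the counts are given as a description.

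With phenylephrine 2 carriers rose and 4 fell by at least 1.5-fold against vehicle (5.88% and 11.8% of the 34), where 7.57% of all tested genes rose and 10% fell. With IGF1 none rose and 1 fell by this much (2.94%), where the shares of all tested genes were 5.76% and 5.9%, and Slc25a26, at 1.52-fold, did not pass (edgeR adjusted p = 0.18). Phenylephrine against IGF1 had 2 higher and 4 lower (5.88% and 11.8%), where the shares were 7.65% and 10.1%. The samples of the 2 groups did not overlap in 8 carriers that were higher and 11 that were lower with phenylephrine than with vehicle (32.6% and 34% of all tested genes), in 8 and 10 with IGF1 against vehicle (28.8% and 27.7%) and in 6 and 11 with phenylephrine against IGF1 (29.3% and 29.5%). The median log2 fold change of the 34 carriers was -0.07 with phenylephrine, -0.03 with IGF1 and -0.04 for phenylephrine against IGF1, against -0.03, -0.00 and -0.00 over all tested genes.

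These counts depended in part on the scaling and on single samples. Scaling by library size alone moved the median of all tested genes to -0.22 for phenylephrine against vehicle, -0.08 for IGF1 against vehicle and -0.11 for phenylephrine against IGF1. The carriers that rose and fell with phenylephrine against vehicle then numbered 4 and 19, where 14.7% of all tested genes rose and 48% fell. Without IGF1 replicate 2, or without IGF1 replicate 3, 6 carriers fell with IGF1 against vehicle in place of 10. The shares of all tested genes are not given for these fits. A loss of calls among the carriers alone and a loss across all genes therefore cannot be told apart here.

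**Figure D1:**
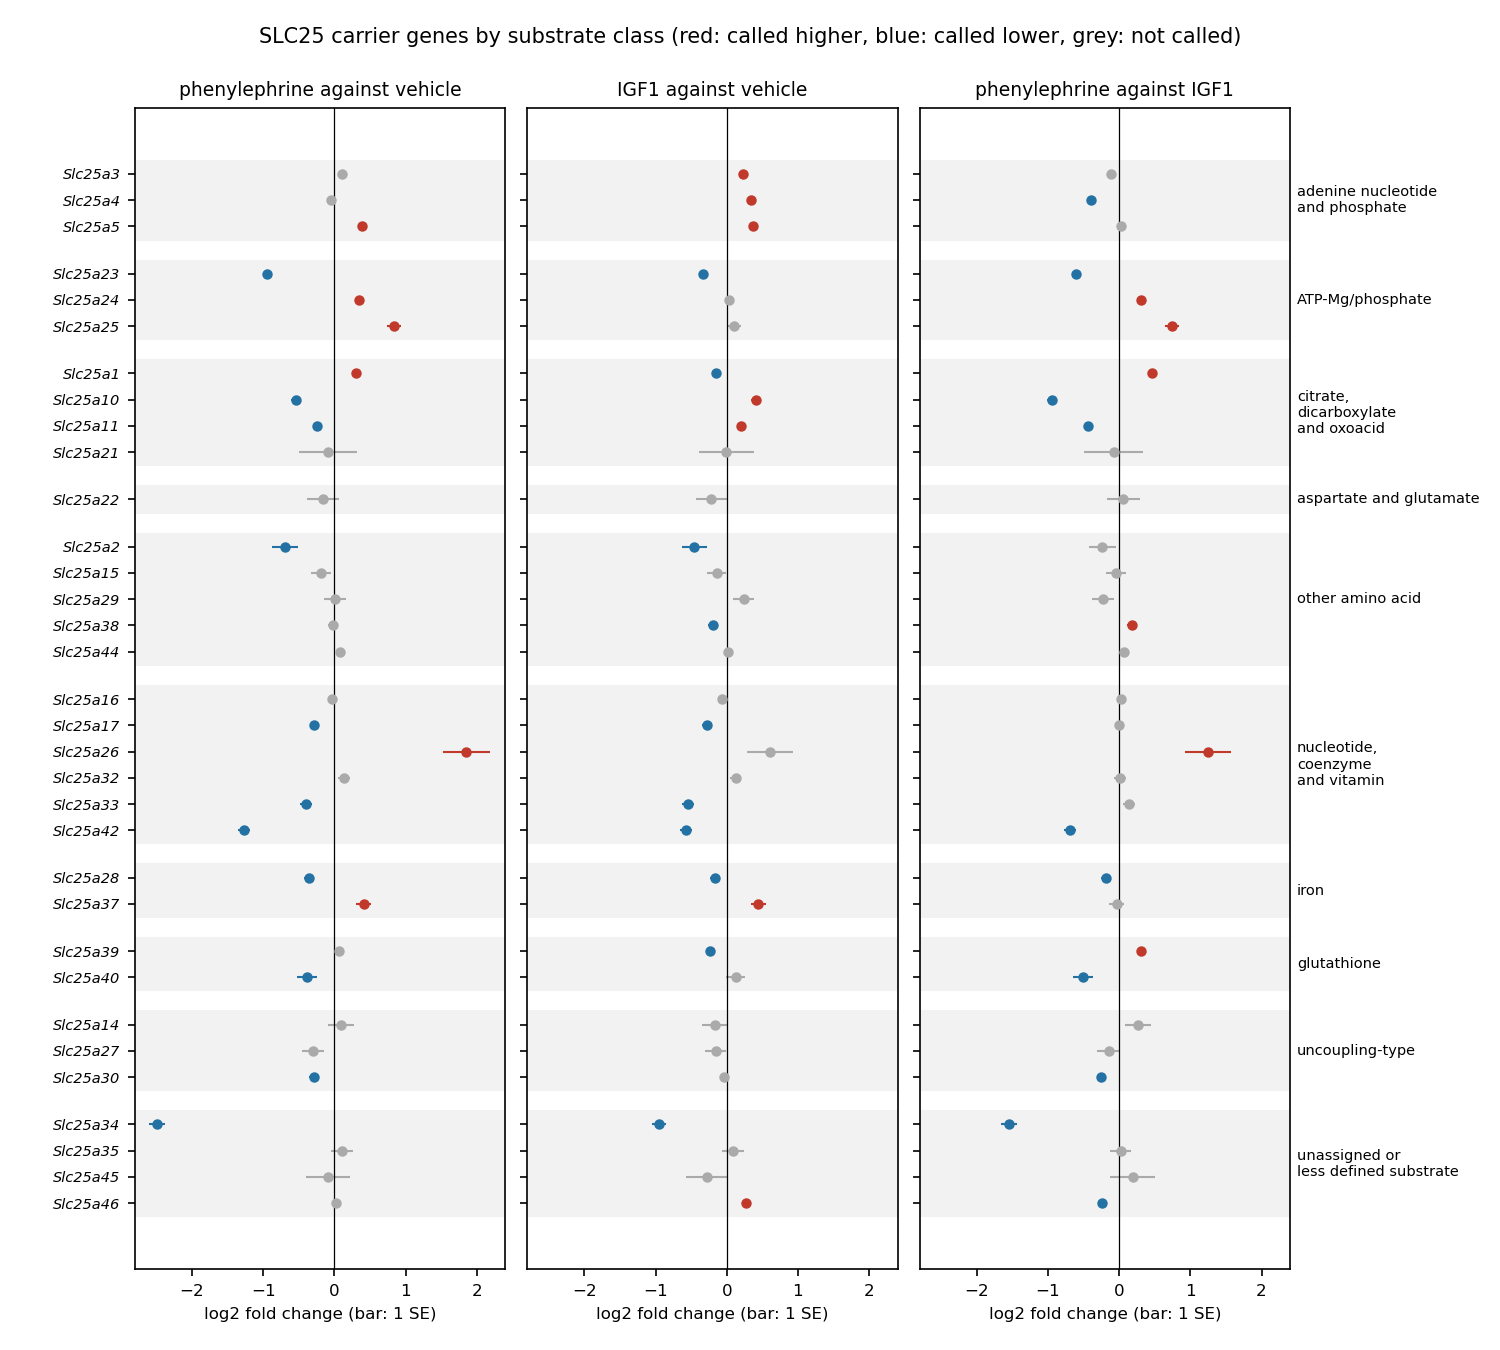
Log2 fold change of 33 of the 34 SLC25 carrier genes (points, with bars of 1 SE) in the 3 comparisons, by substrate class; red points were called higher, blue points lower and grey points neither at an adjusted p under 0.05. With phenylephrine against vehicle the values run from -2.49 for Slc25a34 to 1.85 for Slc25a26, and with IGF1 against vehicle from -0.95 to 0.60 for the same genes.

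Against vehicle, Slc25a2, Slc25a17, Slc25a23, Slc25a28, Slc25a33, Slc25a34 and Slc25a42 fell with phenylephrine and fell with IGF1, and Slc25a5 and Slc25a37 rose in each of these comparisons. Slc25a10 and Slc25a11 fell with phenylephrine and rose with IGF1, and Slc25a1 rose with phenylephrine and fell with IGF1. With phenylephrine but not with IGF1, Slc25a24, Slc25a25 and Slc25a26 passed as higher and Slc25a30 and Slc25a40 as lower. With IGF1 but not with phenylephrine, Slc25a3, Slc25a4 and Slc25a46 passed as higher and Slc25a38 and Slc25a39 as lower. Both comparisons use the same vehicle samples, so carriers called in both are not counted as a result, and only the direct comparison tests whether the treatments differ.

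The start regions of 4 carriers are shown as the RefSeq sequence of build GRCr8, from 250 bases before to 50 bases after the start of the gene. Slc25a34 and Slc25a42 are shown for their large falls, Slc25a25 for its rise with phenylephrine, and Slc25a33 for its fall with both treatments. Capitals mark the cyclic AMP response element (CRE, TGACGTCA) and the E-box (CACGTG) where a search of both strands found them.
Slc25a34, chr5:159219843-159220142, minus strand: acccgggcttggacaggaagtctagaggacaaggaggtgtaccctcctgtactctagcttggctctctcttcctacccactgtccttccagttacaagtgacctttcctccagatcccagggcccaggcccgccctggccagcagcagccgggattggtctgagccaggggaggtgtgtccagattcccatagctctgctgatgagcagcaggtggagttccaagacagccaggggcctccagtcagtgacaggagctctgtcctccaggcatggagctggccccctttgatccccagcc
Slc25a42, chr16:19247724-19248023, plus strand: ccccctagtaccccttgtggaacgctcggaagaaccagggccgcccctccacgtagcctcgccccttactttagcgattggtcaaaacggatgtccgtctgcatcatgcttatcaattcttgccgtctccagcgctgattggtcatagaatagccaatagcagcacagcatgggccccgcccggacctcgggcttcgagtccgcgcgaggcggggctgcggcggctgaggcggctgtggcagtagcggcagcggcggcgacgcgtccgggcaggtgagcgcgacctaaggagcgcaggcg
Slc25a25, chr3:36116532-36116831, minus strand: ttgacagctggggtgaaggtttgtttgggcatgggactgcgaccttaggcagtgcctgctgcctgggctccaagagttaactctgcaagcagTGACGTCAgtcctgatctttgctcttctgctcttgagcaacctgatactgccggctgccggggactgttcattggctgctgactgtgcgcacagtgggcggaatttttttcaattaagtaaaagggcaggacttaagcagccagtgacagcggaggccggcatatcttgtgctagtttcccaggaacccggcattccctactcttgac
Slc25a33, chr5:165502924-165503223, minus strand: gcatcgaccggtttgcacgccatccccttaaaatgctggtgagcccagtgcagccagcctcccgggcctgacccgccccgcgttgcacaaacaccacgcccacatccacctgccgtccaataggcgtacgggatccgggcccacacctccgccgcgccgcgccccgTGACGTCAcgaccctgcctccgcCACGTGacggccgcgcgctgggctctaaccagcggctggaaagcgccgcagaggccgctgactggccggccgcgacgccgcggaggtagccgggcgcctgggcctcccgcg

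Start regions were found for 28 of the 34 carriers. Their median GC content was 60.8% and their median number of CpG dinucleotides 20.5, against 61% and 21 in the 9417 tested genes with such a region. Slc25a34 had 3 CpG dinucleotides and Slc25a25 had 9, against 32 in Slc25a42 and 40 in Slc25a33. The CRE was found in Slc25a25, 158 bases before the start, and in Slc25a33, 84 bases before it (7.14% of the carriers, against 3.12% of all regions). The E-box was found in Slc25a33, 61 bases before the start, and in Slc25a2, 16 bases before it (7.14% against 8.9%). The letters TCAAGGTCA, bound by estrogen-related receptors, GCGCATGC, bound by NRF1, and TGATGCAA, bound by ATF4, were found in none of the 28 carrier regions, against 0.202%, 4.88% and 0.52% of all regions. None of these 5 motifs contains another, both strands were searched for each, and a match of letters is a description of the sequence only.

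The carriers of oxidative phosphorylation are the ADP/ATP exchangers Slc25a4, the main form in heart and skeletal muscle, and Slc25a5, the form of growing cells, with the phosphate carrier Slc25a3. All 3 rose with IGF1, and with phenylephrine Slc25a5 rose. Together they took 77.4% to 81.9% of the reads of the 34 carriers, without correction for gene length. The 34 carriers held 0.488%, 0.477% and 0.484% of all reads in the phenylephrine samples, 0.593%, 0.587% and 0.592% in the IGF1 samples and 0.525%, 0.529% and 0.544% in the vehicle samples, and the ranges of the 3 groups did not overlap. Over the library sizes adjusted by the trimmed mean of M-values the shares were 0.524%, 0.513% and 0.517% with phenylephrine, 0.625%, 0.566% and 0.574% with IGF1 and 0.487%, 0.500% and 0.511% with vehicle. The IGF1 samples were the highest with either library size, while the phenylephrine samples were below the vehicle samples on the first and above them on the second.

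Slc25a4 had 1812, 1771 and 1791 CPM with phenylephrine, 2507, 2261 and 2306 CPM with IGF1 and 1802, 1855 and 1906 CPM with vehicle. Every IGF1 sample was above every other sample. IGF1 raised it 1.27-fold against vehicle (log2 fold change 0.35, SE 0.05, edgeR adjusted p = 3.2e-05). Phenylephrine against IGF1 gave -0.40 (adjusted p = 6.4e-06). For phenylephrine against vehicle the value was -0.05 (adjusted p = 0.39), which became a call under upper-quartile normalization (-0.11, adjusted p = 0.035) and when libraries were scaled by size alone (-0.24, adjusted p = 4e-05).

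Slc25a5 had 510, 509 and 497 CPM with phenylephrine, 518, 475 and 498 CPM with IGF1 and 381, 387 and 388 CPM with vehicle. Both treatments lay above all vehicle samples and overlapped with each other. The rise was 1.31-fold with phenylephrine (log2 0.39, SE 0.04, adjusted p = 1.6e-06) and 1.29-fold with IGF1 (0.37, SE 0.04, adjusted p = 4.3e-06), and phenylephrine against IGF1 gave 0.02 (adjusted p = 0.64). The coding sequences of ADP/ATP exchangers are alike, so reads that fit more than 1 copy may have been split or lost between Slc25a4 and Slc25a5.

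Reads of Slc25a4 per read of Slc25a5, not corrected for gene length, were 3.55, 3.48 and 3.60 in the phenylephrine samples, 4.84, 4.76 and 4.63 in the IGF1 samples and 4.72, 4.79 and 4.92 in the vehicle samples. A ratio within a library needs no scaling between libraries. The phenylephrine samples lay below all others, by log2 -0.44 against vehicle and -0.42 against IGF1 (exact two-sided permutation p = 0.1 for each, the smallest that 3 against 3 samples allow; 0.125 adjusted over the 15 ratio comparisons). For IGF1 against vehicle the difference was -0.02 (exact p = 0.5).

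Slc25a3 had 1814, 1757 and 1809 CPM with phenylephrine, 2089, 1859 and 1860 CPM with IGF1 and 1589, 1659 and 1721 CPM with vehicle. It rose 1.17-fold with IGF1 (log2 0.22, adjusted p = 0.0026). The value for phenylephrine against vehicle was 0.11 (adjusted p = 0.078), with all 3 phenylephrine samples above the vehicle samples, and it became a call without IGF1 replicate 1, which is outside that comparison but enters the shared spread (0.11, adjusted p = 0.00065), in a fit of the 2 groups alone (0.12, adjusted p = 0.00051) and with DESeq2 (0.12, adjusted p = 0.04). With scaling by library size alone the value was -0.079 (adjusted p = 0.079), in the opposite direction.

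**Figure D2:**
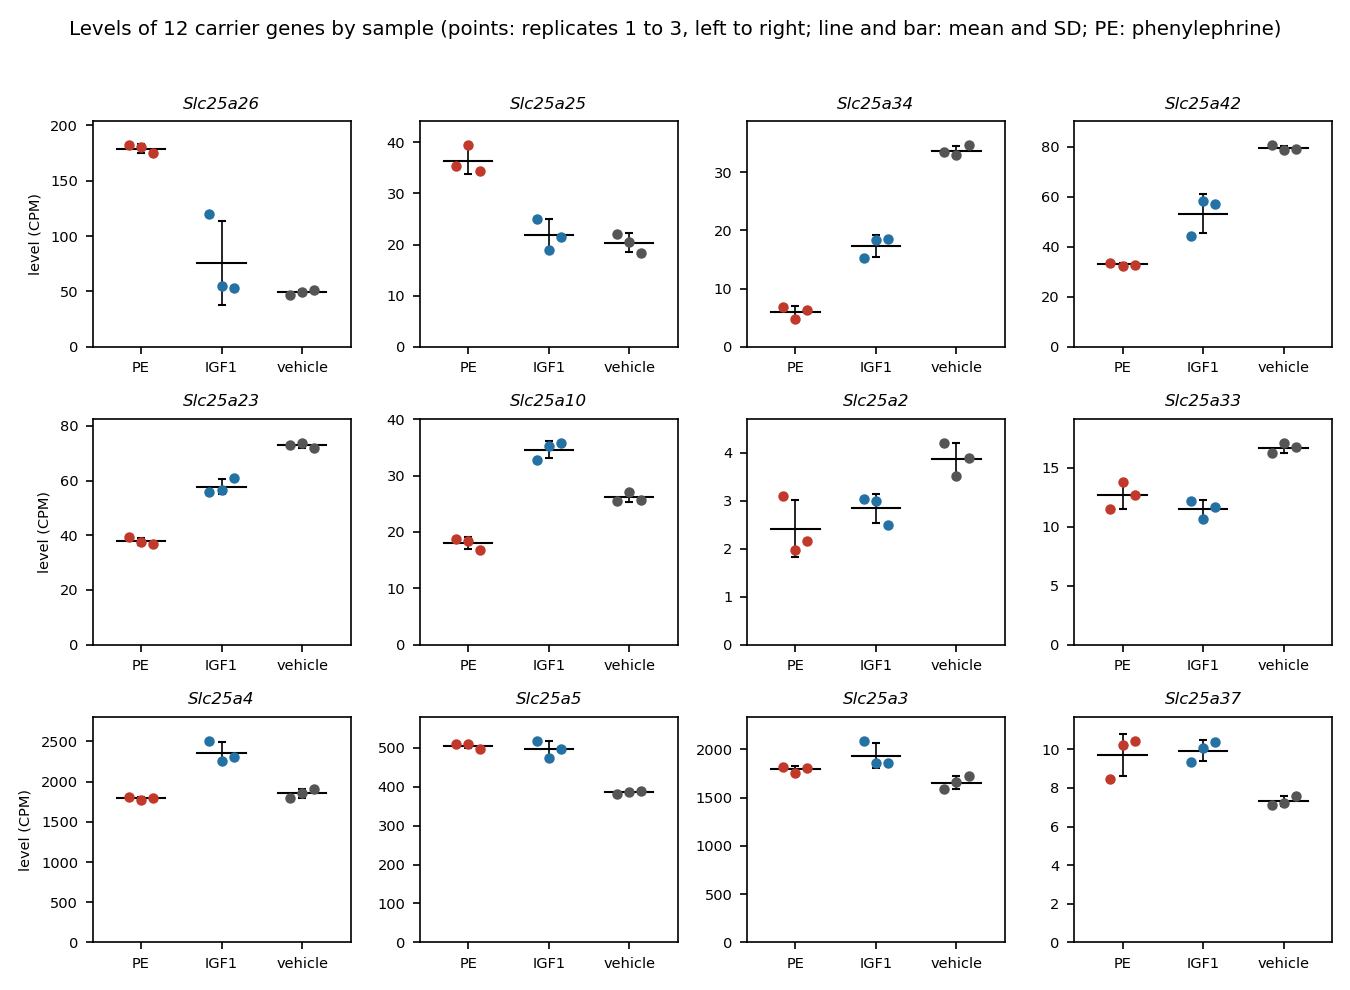
Levels of 12 carrier genes in CPM in each sample (points, replicates 1 to 3 from left to right), with the mean as a line and the SD as a bar, for phenylephrine (PE), IGF1 and vehicle. Phenylephrine samples are the highest in Slc25a26 and Slc25a25 and the lowest in Slc25a34, Slc25a42, Slc25a23 and Slc25a10, and IGF1 replicate 1 stands above the other IGF1 samples in Slc25a26 (119 against 54.8 and 52.7 CPM).

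The ATP-Mg/phosphate carriers move adenine nucleotides in exchange for phosphate without a fixed net balance. They can thus change the size of the adenine nucleotide pool in the matrix. The tested members Slc25a23, Slc25a24 and Slc25a25 are switched on by calcium outside the matrix. These 3 split with phenylephrine: Slc25a24 and Slc25a25 rose and Slc25a23 fell. With IGF1, Slc25a23 fell and the other 2 did not pass. The fourth family member, Slc25a41, had at most 3 reads in any sample.

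Slc25a23 had 39.2, 37.7 and 36.7 CPM with phenylephrine, 55.7, 56.6 and 61.0 CPM with IGF1 and 73.1, 73.7 and 71.8 CPM with vehicle. The 3 groups did not overlap, with IGF1 in the middle. The level was 1.92-fold lower with phenylephrine (log2 -0.94, SE 0.05, adjusted p = 1.1e-09) and 1.26-fold lower with IGF1 (-0.33, SE 0.05, adjusted p = 3.4e-05), and 1.53-fold lower with phenylephrine than with IGF1 (-0.61, SE 0.05, adjusted p = 7.3e-08).

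Slc25a25 had 35.3, 39.4 and 34.4 CPM with phenylephrine, 25.1, 19 and 21.5 CPM with IGF1 and 22.1, 20.5 and 18.4 CPM with vehicle. The phenylephrine samples were above all others, while the IGF1 and vehicle samples overlapped. The level was 1.79-fold higher with phenylephrine than with vehicle (log2 0.84, SE 0.10, adjusted p = 6.1e-06) and 1.67-fold higher than with IGF1 (0.74, SE 0.10, adjusted p = 2.1e-05), and IGF1 against vehicle gave 0.10 (SE 0.10, adjusted p = 0.43). Without IGF1 replicate 1 the last 2 values were 0.85 (adjusted p = 7e-12) and -0.0047 (adjusted p = 0.97). The gene overlaps Naif1 in GRCr8, which was not among the tested genes. Slc25a24 had 56.6, 59.0 and 57.8 CPM with phenylephrine, 46.9, 47.4 and 45.3 CPM with IGF1 and 45.9, 43.9 and 46.1 CPM with vehicle, a rise of 1.28-fold with phenylephrine (log2 0.35, adjusted p = 8.7e-06).

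Reads of Slc25a25 per read of Slc25a23 were 0.901, 1.05 and 0.938 with phenylephrine, 0.450, 0.335 and 0.352 with IGF1 and 0.302, 0.279 and 0.256 with vehicle. The groups did not overlap in any comparison. The ratio was 3.45 times as large with phenylephrine as with vehicle (log2 1.79), 1.35 times as large with IGF1 as with vehicle (0.43) and 2.55 times as large with phenylephrine as with IGF1 (1.35), each with an exact p = 0.1, the smallest possible.

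Slc25a1, Slc25a10, Slc25a11 and Slc25a21 carry citrate, dicarboxylates and oxoacids. Slc25a1 exports citrate, the source of cytosolic acetyl-CoA for lipid synthesis, Slc25a10 exchanges malate or succinate for phosphate, and Slc25a11 exchanges malate for 2-oxoglutarate in the malate-aspartate shuttle. Here the treatments differed in direction: Slc25a10 and Slc25a11 fell with phenylephrine and rose with IGF1, and Slc25a1 did the reverse. Both calls of Slc25a1 against vehicle and the rise of Slc25a11 with IGF1 did not hold in every alternative fit, as given below. Slc25a21, an oxodicarboxylate carrier, was at 0.192 to 0.790 CPM over all 9 samples and passed in no comparison.

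Slc25a10 had 18.8, 18.4 and 16.8 CPM with phenylephrine, 32.8, 35.3 and 35.8 CPM with IGF1 and 25.6, 27.1 and 25.7 CPM with vehicle. No groups overlapped, and vehicle lay in the middle. It fell with phenylephrine (log2 -0.54, SE 0.06, adjusted p = 5.7e-06) and rose with IGF1 (0.41, SE 0.06, adjusted p = 6.7e-05) against vehicle, and was 1.93-fold lower with phenylephrine than with IGF1 (-0.95, SE 0.06, adjusted p = 1.3e-08).

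Slc25a11 had 197, 186 and 176 CPM with phenylephrine, 255, 247 and 255 CPM with IGF1 and 214, 223 and 223 CPM with vehicle. Phenylephrine against vehicle gave -0.24 (adjusted p = 0.00033), IGF1 against vehicle 0.20 (adjusted p = 0.0019) and phenylephrine against IGF1 -0.44 (adjusted p = 1.1e-06). The rise with IGF1 was no longer called with scaling by library size alone (0.11, adjusted p = 0.057).

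Slc25a1 had 33.3, 31.3 and 33.2 CPM with phenylephrine, 24.5, 23.2 and 23.6 CPM with IGF1 and 27.7, 25.7 and 25.7 CPM with vehicle. It was 1.37-fold higher with phenylephrine than with IGF1 (log2 0.46, adjusted p = 1.2e-05) and 1.24-fold higher than with vehicle (0.30, adjusted p = 0.00041), the last of which ended with scaling by library size alone (0.11, adjusted p = 0.14). The fall with IGF1 (-0.15, adjusted p = 0.043) ended without a filter on low counts, with the 2 groups fitted alone, with DESeq2 and without any 1 of 5 samples: vehicle replicate 1, phenylephrine replicate 1 or 3 and IGF1 replicate 2 or 3 (-0.12 to -0.16, adjusted p = 0.05 to 0.14).

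Among amino acid carriers, the tested mitochondrial glutamate carrier Slc25a22 had 2.47, 1.73 and 1.36 CPM with phenylephrine, 1.84, 1.94 and 1.55 CPM with IGF1 and 2.02, 2.15 and 2.02 CPM with vehicle, and passed in no comparison (adjusted p = 0.57, 0.44 and 0.85). The aspartate-glutamate exchangers Slc25a12 and Slc25a13 have no row in the table, and the second glutamate carrier Slc25a18 had at most 2 reads in a sample. Of the 5 carriers of other amino acids, Slc25a2 fell with both treatments and Slc25a38 fell with IGF1. The ornithine carrier Slc25a15, the basic amino acid carrier Slc25a29 and Slc25a44, a carrier of branched-chain amino acids, passed in no comparison, with log2 values from -0.22 to 0.24. Without IGF1 replicate 1, Slc25a44 was higher with phenylephrine than with IGF1 (0.14, adjusted p = 0.027), where all 9 samples gave 0.06 (adjusted p = 0.43).

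Slc25a2, an ornithine carrier, had 3.09, 1.98 and 2.16 CPM with phenylephrine, 3.03, 3.0 and 2.49 CPM with IGF1 and 4.20, 3.52 and 3.90 CPM with vehicle. All treated samples were below all vehicle samples. The level was 1.61-fold lower with phenylephrine (log2 -0.69, SE 0.18, adjusted p = 0.0047), and the fall with IGF1 (-0.45, adjusted p = 0.043) ended without any 1 of 5 samples: vehicle replicate 1 or 3, phenylephrine replicate 3 and IGF1 replicate 2 or 3 (-0.37 to -0.51, adjusted p = 0.05 to 0.15). The gene overlaps Taf7 in GRCr8, whose log2 values were 0.07 with phenylephrine and -0.11 with IGF1. Slc25a38, which supplies glycine for heme synthesis, was at 24.4, 21.1 and 21.8 CPM with phenylephrine, 21.1, 19.4 and 19.3 CPM with IGF1 and 22.2, 23.4 and 22.7 CPM with vehicle. Its fall with IGF1 (-0.20, adjusted p = 0.029) ended without vehicle replicate 2 or 3 or IGF1 replicate 2 or 3 (adjusted p = 0.056 to 0.086), and its value for phenylephrine against IGF1 (0.17, adjusted p = 0.049) ended without any 1 vehicle sample, phenylephrine replicate 1 or 3 or IGF1 replicate 2 or 3 (0.11 to 0.19, adjusted p = 0.067 to 0.23) and in 5 other fits.

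The class of nucleotide, coenzyme and vitamin carriers held both the largest rise and the second largest fall among the 34 carriers. With phenylephrine Slc25a26 rose and Slc25a42, Slc25a33 and Slc25a17 fell, and with IGF1 the same 3 fell and none rose. Slc25a16, linked to coenzyme A, and the folate and FAD carrier Slc25a32 passed in no comparison.

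Slc25a26, which brings S-adenosylmethionine, the methyl donor for mitochondrial RNA, protein and lipids, into the matrix, had 182, 180 and 175 CPM with phenylephrine, 119, 54.8 and 52.7 CPM with IGF1 and 47.1, 49.8 and 51.4 CPM with vehicle. All phenylephrine samples were above all others, and IGF1 replicate 1 lay between them and the rest. The level was 179 ± 3.78 CPM with phenylephrine and 49.5 ± 2.17 CPM with vehicle (SD, n = 3 each), a 3.62-fold rise (log2 1.85, SE 0.33, edgeR adjusted p = 0.0031). IGF1 against vehicle gave 0.60 (SE 0.32, adjusted p = 0.18), and phenylephrine was 2.38-fold higher than IGF1 (1.25, SE 0.32, adjusted p = 0.016).

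Without IGF1 replicate 1, the Slc25a26 values were 1.86 for phenylephrine against vehicle (adjusted p = 2.9e-35), 0.12 for IGF1 against vehicle (adjusted p = 0.016) and 1.73 for phenylephrine against IGF1 (adjusted p = 6.4e-32). The call of phenylephrine against IGF1 ended without IGF1 replicate 2 (1.06, adjusted p = 0.051) and with the 2 groups fitted alone (1.24, adjusted p = 0.057). The gene overlaps Lrig1 in GRCr8, which was not among the tested genes, and the sources used here do not say whether the counting used strand.

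Slc25a42, which brings coenzyme A into the matrix in exchange for adenine nucleotides, had 33.7, 32.5 and 32.9 CPM with phenylephrine, 44.4, 58.3 and 57.2 CPM with IGF1 and 80.6, 78.6 and 79.2 CPM with vehicle. The groups did not overlap, with IGF1 in the middle and IGF1 replicate 1 the lowest of its group. The level was 2.41-fold lower with phenylephrine (log2 -1.27, SE 0.08, adjusted p = 6e-08) and 1.49-fold lower with IGF1 (-0.57, SE 0.08, adjusted p = 6.4e-05) than with vehicle. It was 1.62-fold lower with phenylephrine than with IGF1 (-0.70, SE 0.08, adjusted p = 1.4e-05). Without IGF1 replicate 1 the last 2 values were -0.46 and -0.81. Tmem161a, which overlaps Slc25a42 in GRCr8, gave -0.19 with phenylephrine (adjusted p = 0.014) and 0.08 with IGF1 (adjusted p = 0.28).

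Slc25a33 carries pyrimidine nucleotides and is known from human cell lines as a gene induced by insulin and IGF1. Here it had 11.5, 13.8 and 12.7 CPM with phenylephrine, 12.2, 10.6 and 11.7 CPM with IGF1 and 16.2, 17.1 and 16.8 CPM with vehicle. All treated samples were below all vehicle samples. It was 1.45-fold lower with IGF1 (log2 -0.54, SE 0.08, adjusted p = 8.9e-05) and 1.32-fold lower with phenylephrine (-0.40, SE 0.08, adjusted p = 0.00097), and phenylephrine against IGF1 gave 0.14 (adjusted p = 0.19). Its relative Slc25a36, a pyrimidine nucleotide carrier too, has no row in the table. Slc25a17, a carrier of coenzyme A, FAD and NAD that resides in peroxisomes, fell by 0.28 on the log2 scale with each treatment (adjusted p = 0.0012 with phenylephrine and 0.0014 with IGF1).

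The iron carriers are mitoferrin 1, encoded by Slc25a37 and best known from developing red cells, and mitoferrin 2, encoded by Slc25a28. With phenylephrine and with IGF1 Slc25a37 rose and Slc25a28 fell. Slc25a37 had 8.45, 10.2 and 10.4 CPM with phenylephrine, 9.35, 10.1 and 10.4 CPM with IGF1 and 7.12, 7.21 and 7.60 CPM with vehicle. The rise was 1.33-fold with phenylephrine (log2 0.41, SE 0.10, adjusted p = 0.0031) and 1.36-fold with IGF1 (0.45, SE 0.10, adjusted p = 0.0019), and the first ended with scaling by library size alone (0.22, adjusted p = 0.11). Of the erythroid markers, Alas2 had at most 8 reads in any sample, Hbb 23, Hba1 3, Hba2 17, Klf1 18 and Ahsp 45.

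Slc25a28 had 23, 23.4 and 23.6 CPM with phenylephrine, 27.3, 26.9 and 25.5 CPM with IGF1 and 27.2, 31.1 and 31.4 CPM with vehicle. The phenylephrine samples were below all others, and IGF1 replicate 1 overlapped with vehicle replicate 1. It was 1.28-fold lower with phenylephrine (log2 -0.36, SE 0.07, adjusted p = 0.0003). The fall with IGF1 (-0.17, adjusted p = 0.039) ended with the 2 groups fitted alone (0.066) and without vehicle replicate 2 or 3, phenylephrine replicate 2 or 3 or IGF1 replicate 2 or 3 (-0.14 to -0.19, adjusted p = 0.051 to 0.13). The value for phenylephrine against IGF1 (-0.18, adjusted p = 0.029) ended without any 1 phenylephrine sample or without IGF1 replicate 2 (adjusted p = 0.057 to 0.076). Slc25a37 reads per Slc25a28 read were 0.367, 0.438 and 0.442 with phenylephrine, 0.343, 0.376 and 0.406 with IGF1 and 0.262, 0.232 and 0.242 with vehicle. Each treatment lay above all vehicle samples, by log2 0.76 with phenylephrine and 0.61 with IGF1 (exact p = 0.1 each, the smallest possible).

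Slc25a39 and Slc25a40 are related carriers, and Slc25a39 is needed for glutathione in mitochondria. Slc25a39 had 133, 128 and 131 CPM with phenylephrine, 116, 101 and 101 CPM with IGF1 and 127, 125 and 123 CPM with vehicle. It fell with IGF1 (log2 -0.24, SE 0.05, adjusted p = 0.0013) and was higher with phenylephrine than with IGF1 (0.30, adjusted p = 0.00016). Phenylephrine against vehicle gave 0.06 (adjusted p = 0.31), and -0.13 (adjusted p = 0.014) with scaling by library size alone.

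Slc25a40 had 7.59, 8.28 and 8.76 CPM with phenylephrine, 8.49, 13.9 and 12.3 CPM with IGF1 and 10.7, 10.6 and 10.8 CPM with vehicle. IGF1 replicate 1 lay among the phenylephrine samples and the other IGF1 samples above vehicle. Phenylephrine against vehicle gave -0.38 (adjusted p = 0.033), a call that ended without any 1 of the 6 phenylephrine and vehicle samples (-0.33 to -0.43, adjusted p = 0.051 to 0.12) and with limma-voom (0.055). IGF1 against vehicle gave 0.12 (adjusted p = 0.48), and without IGF1 replicate 1 it was 0.29 (adjusted p = 0.0085). Phenylephrine against IGF1 gave -0.51 (adjusted p = 0.0079), and -0.67 (adjusted p = 1.8e-07) without IGF1 replicate 1. Slc25a39 reads per Slc25a40 read were 17.5, 15.4 and 15 with phenylephrine, 13.7, 7.27 and 8.22 with IGF1 and 12, 11.8 and 11.3 with vehicle, so the phenylephrine samples were above all others (log2 0.45 against vehicle and 0.77 against IGF1, exact p = 0.1 each, the smallest possible), while IGF1 against vehicle gave -0.32 (exact p = 0.4). Of the IGF1 samples, replicate 1 was above the vehicle samples and the other 2 were below them. Without replicate 1 the differences were -0.60 for IGF1 against vehicle and 1.04 for phenylephrine against IGF1.

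**Figure D3:**
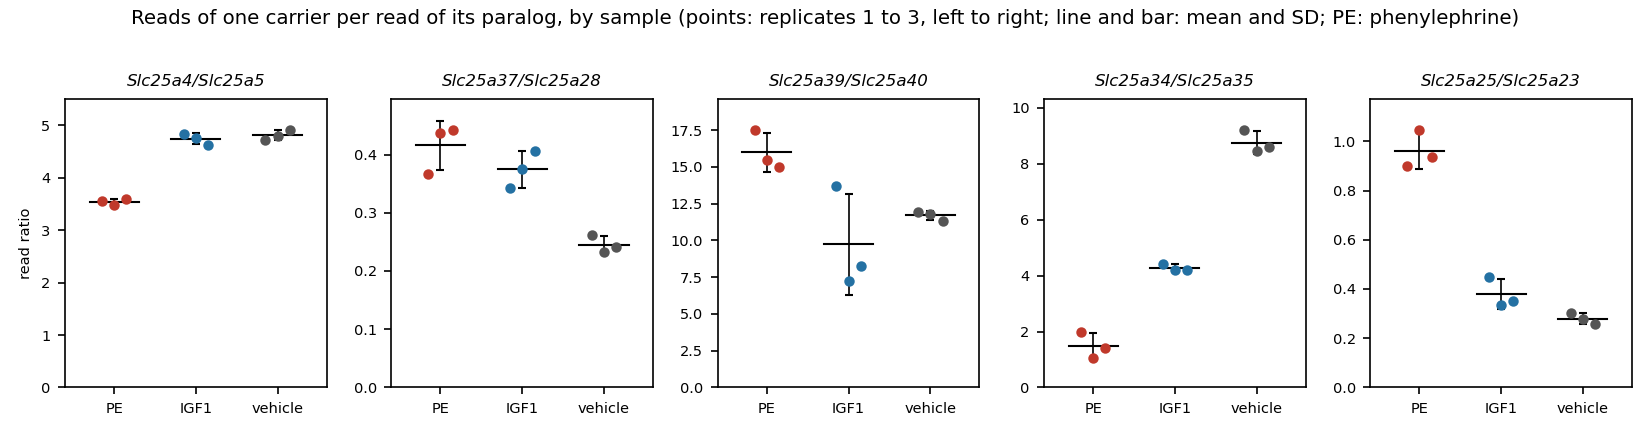
Reads of a carrier per read of its paralog in each sample (points, replicates 1 to 3 from left to right; mean as a line, SD as a bar) for 5 pairs of related carriers. Phenylephrine (PE) samples lie apart from the vehicle samples in all 5 pairs, and for Slc25a34/Slc25a35 the ratio was 1.06 to 1.99 with phenylephrine, 4.19 to 4.43 with IGF1 and 8.47 to 9.22 with vehicle.

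Of the relatives of uncoupling proteins, Slc25a30 was at 48.6, 46 and 46.9 CPM with phenylephrine, 53.3, 60.0 and 54.8 CPM with IGF1 and 61.9, 57.9 and 53.4 CPM with vehicle. It was lower with phenylephrine than with vehicle (log2 -0.29, SE 0.06, adjusted p = 0.00077) and than with IGF1 (-0.25, adjusted p = 0.0027), and IGF1 against vehicle gave -0.04 (adjusted p = 0.6). Slc25a14 and Slc25a27, both best known from brain, were at 2.87 to 4.73 CPM and passed in no comparison. Without IGF1 replicate 1, Slc25a14 was higher with phenylephrine than with IGF1 (log2 0.46, adjusted p = 0.022), where all 9 samples gave 0.26 (adjusted p = 0.24).

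The carriers with an unassigned or less defined substrate held the largest fall. Slc25a34 had 6.83, 4.86 and 6.27 CPM with phenylephrine, 15.2, 18.4 and 18.5 CPM with IGF1 and 33.5, 32.9 and 34.6 CPM with vehicle. The 3 groups were far apart, with IGF1 between the others. IGF1 lowered it 1.93-fold against vehicle (log2 -0.95, SE 0.10, adjusted p = 1.5e-06), and it was 2.91-fold lower with phenylephrine than with IGF1 (-1.54, SE 0.11, adjusted p = 2.8e-08). Phenylephrine against vehicle gave -2.49 (SE 0.11, adjusted p = 2.9e-10).

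Its closest relative Slc25a35 had 3.43, 4.60 and 4.39 CPM with phenylephrine, 3.42, 4.36 and 4.42 CPM with IGF1 and 3.64, 3.89 and 4.03 CPM with vehicle, and the groups overlapped (adjusted p = 0.57, 0.66 and 0.93). The reads of Slc25a34 per read of Slc25a35 were 1.99, 1.06 and 1.43 with phenylephrine, 4.43, 4.21 and 4.19 with IGF1 and 9.22, 8.47 and 8.59 with vehicle. No groups overlapped, and the differences were log2 -2.60 for phenylephrine and -1.03 for IGF1 against vehicle and -1.57 for phenylephrine against IGF1 (exact p = 0.1 each, the smallest possible). In the same class Slc25a46, a protein of the outer membrane that acts in mitochondrial dynamics, had 84.5, 85.8 and 86.1 CPM with phenylephrine, 97.2, 104 and 103 CPM with IGF1 and 86.8, 80.1 and 86.1 CPM with vehicle. It rose with IGF1 (log2 0.27, adjusted p = 0.00018). For phenylephrine against vehicle it gave 0.02 (adjusted p = 0.74), and -0.18 (adjusted p = 0.021) with scaling by library size alone. Slc25a45 was at 0.653 to 1.31 CPM and passed in no comparison.

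Of the family genes below the minimum, Slc25a47 had at most 7 reads in a sample, Slc25a53 at most 11 and Slc25a54 at most 1. Slc25a6, Slc25a31, Slc25a43, Slc25a48, Slc25a51 and Slc25a52 have no row in the table. Family members under other symbols were the uncoupling protein Ucp2 and the outer membrane proteins Mtch1 and Mtch2. Ucp2 rose with phenylephrine (log2 0.36, adjusted p = 1.9e-06) and IGF1 (0.33, adjusted p = 6.8e-06). With IGF1 Mtch2 rose (0.25, adjusted p = 0.00025) and Mtch1 fell (-0.24, adjusted p = 4.6e-05). Ucp1 and Ucp3 were not tested.

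Carriers reach the inner membrane through receptors and pores of the outer membrane, small chaperones between the membranes and the TIM22 complex, of which Agk is a subunit. Of 12 tested genes of this import machinery, 10 rose and none fell with phenylephrine, and 10 rose and 1 fell with IGF1 (27.9% and 24.7% of all tested genes rose). With scaling by library size alone the counts were 6 and 1 with phenylephrine and 7 and 1 with IGF1. Under that scaling 14.7% of all tested genes rose and 48% fell with phenylephrine, and 17.1% rose and 30.4% fell with IGF1. Agk had 50.5, 51.6 and 49.3 CPM with phenylephrine, 47.6, 39.7 and 37.8 CPM with IGF1 and 29.3, 27.3 and 27.6 CPM with vehicle, a rise of 1.80-fold with phenylephrine (log2 0.85, adjusted p = 2.2e-07) and 1.48-fold with IGF1 (0.57, adjusted p = 1.6e-05). The chaperone Timm8a1 rose too (0.60 with phenylephrine, adjusted p = 2e-06, and 0.50 with IGF1, adjusted p = 1.4e-05). Timm10b fell with IGF1 (-0.46, adjusted p = 7e-04), where phenylephrine gave 0.19 (adjusted p = 0.086). Phenylephrine against IGF1 had 3 higher and 1 lower, where 27.1% of all tested genes were higher and 27.1% lower. Without IGF1 replicate 1 there were 7 higher and 1 lower, where the shares were 30.4% and 30.2%.

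Slc25a11 works in the malate-aspartate shuttle with enzymes on both sides of the membrane, and Gpd1 serves the glycerol phosphate shuttle. Of 6 shuttle enzymes, 5 rose and none fell with IGF1, 3 rose and 1 fell with phenylephrine, and 5 were lower and none higher with phenylephrine than with IGF1. Of all tested genes 24.7% rose and 23.4% fell with IGF1, 27.9% rose and 28.9% fell with phenylephrine, and 27.1% were lower with phenylephrine than with IGF1. Mdh1, the cytosolic malate dehydrogenase, had 951, 899 and 916 CPM with phenylephrine, 1514, 1431 and 1457 CPM with IGF1 and 971, 1004 and 1029 CPM with vehicle. It rose 1.47-fold with IGF1 (log2 0.55, adjusted p = 1.4e-07) and was 1.59-fold lower with phenylephrine than with IGF1 (-0.67, adjusted p = 9.5e-09). Its fall with phenylephrine against vehicle (-0.12, adjusted p = 0.032) ended without phenylephrine replicate 2 or 3 or vehicle replicate 2 or 3 (-0.10 to -0.13, adjusted p = 0.065 to 0.13). Gpd1 rose with IGF1 (0.76, adjusted p = 1.9e-08) and phenylephrine (0.36, adjusted p = 2.9e-05), and Got2, the mitochondrial aspartate aminotransferase, was lower with phenylephrine than with IGF1 (-0.52, adjusted p = 1.3e-07).

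Of 18 other mitochondrial channels and carriers, 4 rose and 6 fell with phenylephrine (1 and 9 with scaling by library size alone), 11 rose and 3 fell with IGF1 (8 and 4), and 1 was higher and 10 lower with phenylephrine than with IGF1. The shares of all tested genes in the main fit were 27.9% and 28.9% with phenylephrine, 24.7% and 23.4% with IGF1, and 27.1% in each direction between the treatments. Scaling by library size alone moved these shares too. Under it, 48% of all tested genes were called lower for phenylephrine against vehicle and 14.7% higher. For IGF1 against vehicle 30.4% were called lower and 17.1% higher. The pyruvate carrier subunit Mpc2 rose 1.55-fold (log2 0.63, adjusted p = 1.4e-07) and the calcium uniporter Mcu 1.51-fold (0.60, adjusted p = 3.3e-06) with IGF1. The sideroflexin Sfxn3 was at 91.4, 93.9 and 86.9 CPM with phenylephrine, 48.2, 52.3 and 49.4 CPM with IGF1 and 86.5, 84.4 and 81.4 CPM with vehicle, so that it fell with IGF1 (log2 -0.75, adjusted p = 1.2e-08). The largest rise of this list with phenylephrine was that of Letm1, a cation exchanger (0.48, adjusted p = 2.8e-06). The sideroflexin Sfxn2 had 2.20, 1.15 and 1.87 CPM with phenylephrine, 1.25, 1.78 and 2.45 CPM with IGF1 and 2.85, 3.52 and 2.64 CPM with vehicle, and all treated samples were below the vehicle samples. Its fall with phenylephrine (-0.78, adjusted p = 0.019) ended without phenylephrine replicate 2 or vehicle replicate 2 (adjusted p = 0.097 and 0.073). Its fall with IGF1 (-0.68, adjusted p = 0.035) ended without IGF1 replicate 1 or 2 or vehicle replicate 1 or 2 (-0.49 to -0.73, adjusted p = 0.061 to 0.13).

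Of 12 regulators of mitochondrial genes, 4 rose and 5 fell with phenylephrine (1 and 7 with scaling by library size alone), and 1 rose and 3 fell with IGF1. Of all tested genes 27.9% rose and 28.9% fell with phenylephrine (14.7% and 48% with scaling by library size alone), and 24.7% rose and 23.4% fell with IGF1. Polrmt, the mitochondrial RNA polymerase, had 22, 24.6 and 21.5 CPM with phenylephrine, 31.6, 32.4 and 33.8 CPM with IGF1 and 37.5, 35.5 and 35.7 CPM with vehicle, and was 1.60-fold lower with phenylephrine (log2 -0.67, adjusted p = 3.8e-07). The nuclear receptor Esrrb fell with phenylephrine (-0.98, adjusted p = 0.00039) and the coactivator Pprc1 rose (0.50, adjusted p = 5.3e-07). With IGF1 the values were -0.00 for Esrrb (adjusted p = 1) and -0.04 for Pprc1 (adjusted p = 0.47), and both differed between phenylephrine and IGF1 (-0.98, adjusted p = 0.00045, and 0.54, adjusted p = 2.1e-07). The nuclear receptor Ppara was lower with phenylephrine than with IGF1 (-0.64, adjusted p = 4.6e-05). Esrrg, another nuclear receptor, was higher with phenylephrine than with IGF1 (0.44, adjusted p = 1.5e-06) and than with vehicle (0.20, adjusted p = 0.0015), the last of which ended with scaling by library size alone (0.0082, adjusted p = 0.88).

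**Figure D4:**
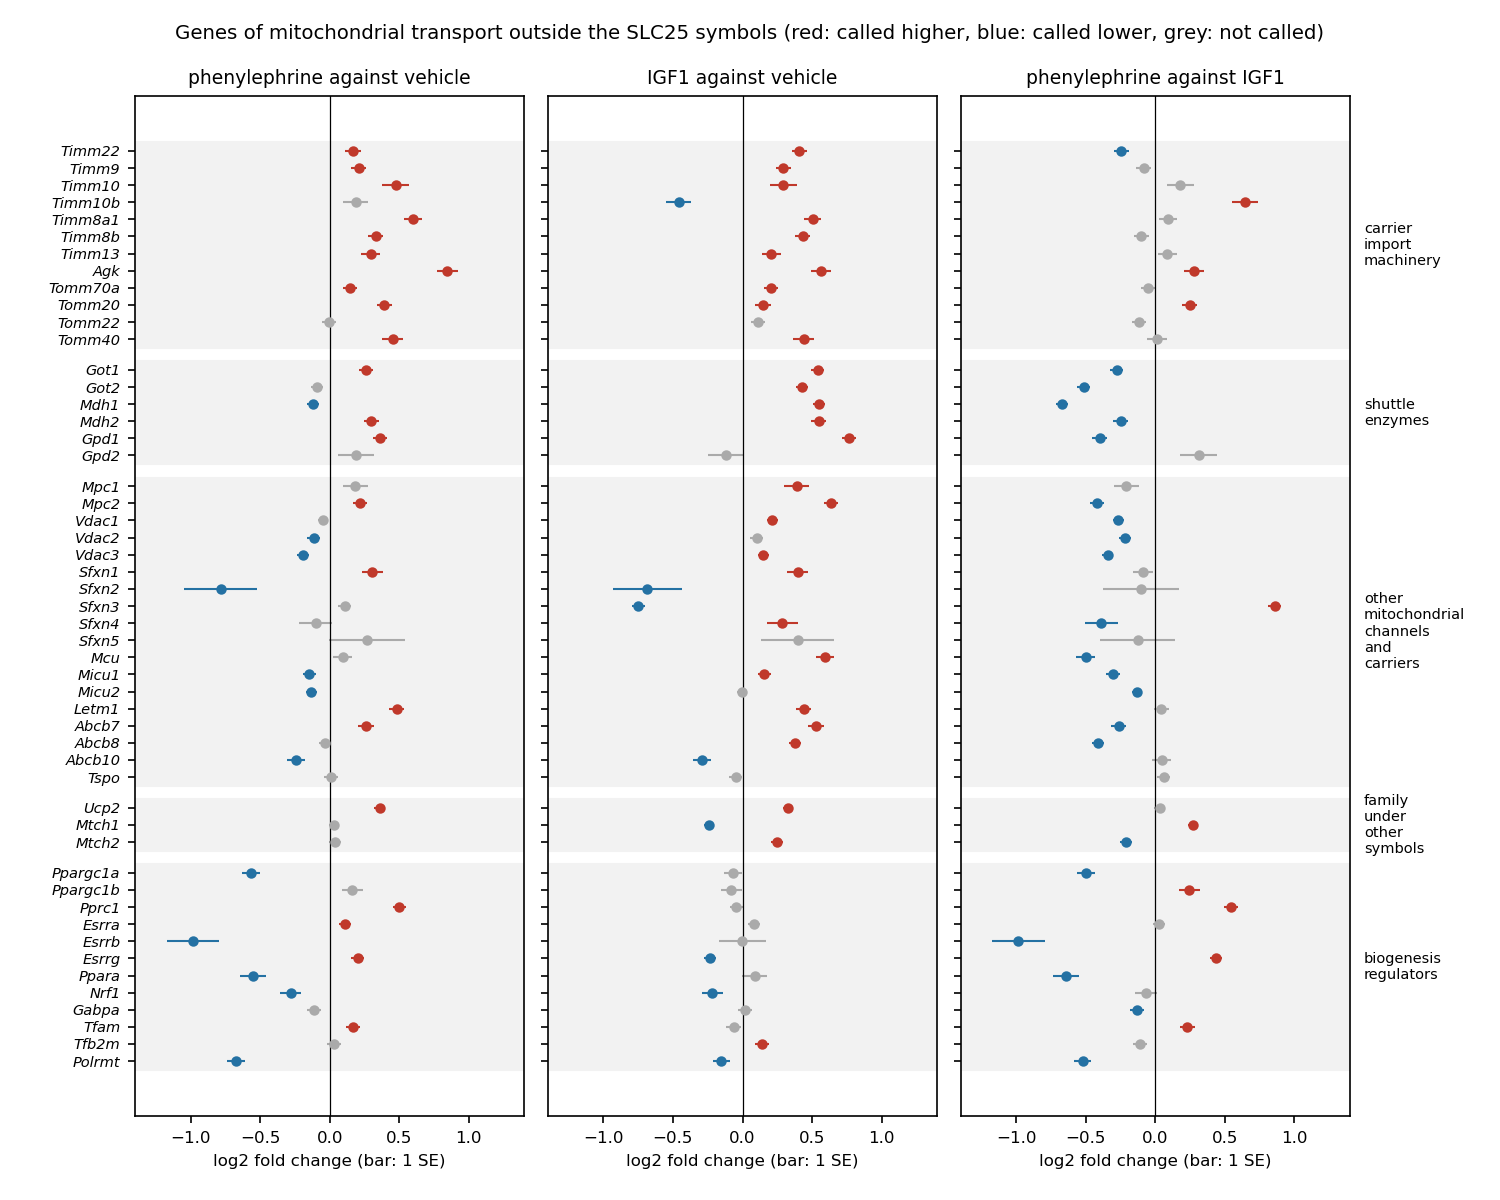
Log2 fold change (points, with bars of 1 SE) in the 3 comparisons of genes that import carriers, act in shuttles, form other mitochondrial channels and carriers, belong to the family under other symbols or regulate mitochondrial genes; red points were called higher, blue points lower and grey points neither. Of the 12 import genes 10 were called higher with phenylephrine and 10 with IGF1, and 5 of the 6 shuttle enzymes were called lower with phenylephrine than with IGF1. The shares of all tested genes called in these directions were 27.9%, 24.7% and 27.1%.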

How the data were processed

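The deposited values are raw read counts of each gene in the 9 samples, to which the authors had applied no normalization. The submitters' processing notes name STAR, HTSeq, DESeq and the genome build rn5, and leave out versions and roles. Libraries came from total RNA (NuGEN Ovation kit) and were read on a NovaSeq, per the labels' protocols. The sources used here do not say whether the counting used strand, so reads of overlapping genes cannot be told apart; beside those named in the text, Slc25a3, Slc25a5, Slc25a11, Slc25a14, Slc25a15, Slc25a16, Slc25a17, Slc25a21, Slc25a22, Slc25a24, Slc25a33, Slc25a35, Slc25a40, Slc25a44, Slc25a45 and Slc25a46 overlap another gene of GRCr8.

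From the counts, 11873 genes, which held 99.99% of all reads, were kept by filterByExpr in edgeR 4.0.16 (minimum count 10, minimum total 15), scaled with edgeR's TMM factors (trimmed mean of M-values), and modelled by group in edgeR's robust quasi-likelihood fit of all 9 samples. Every adjusted p not otherwise named is from this fit. The SE was taken as the size of the log2 fold change over the root of the F statistic and so draws on the spread of all 9 samples. Ratios of paralogs were compared by exact permutation. R 4.3.3 was used, with DESeq2 1.42.0 and limma 3.58.1 as alternatives beside other scalings, filters and thresholds, the 2 groups alone, a replicate block and leaving out each sample.

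The carriers, classes and lists were chosen with earlier results of these data known. Full values were to be given for carriers called with at least 1.5-fold change in any comparison, for the carrier with the smallest adjusted p in a class with none, for both genes of a paralog pair, and the 2 highest and 2 lowest called genes of each list were to be named; not all of these list genes are described. Slc25a1, Slc25a3, Slc25a11, Slc25a17, Slc25a24, Slc25a33, Slc25a38 and Slc25a46 were added after their values were seen. The paralog pairs Slc25a12/Slc25a13, Slc25a22/Slc25a18 and Slc25a33/Slc25a36 could not be formed. Sequences are from RefSeq (GRCr8), matched by symbol, and no gene lengths of the authors' build were used, so ratios and shares of reads between genes are not corrected for length and only their differences between groups are read. The values of 1 carrier, which is counted among the 34, are not reported here.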

Additional observations from a re-analysis of the deposited data

How the results depend on the processing

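Of the 50 called values of carriers over the 3 comparisons, 39 were called in each of the 19 alternative fits, and those that were not are given beside their genes. Against vehicle, phenylephrine raised 6 carriers (6 to 7 on leaving out a sample, 4 to 7 in the other alternatives) and lowered 11 (10 to 11, and 10 to 19). The highest count, 19, came from scaling by library size only, where 48% of all tested genes fell, against 28.9% in the main fit. Among the 19 were Slc25a15 (-0.38, adjusted p = 0.046), Slc25a16 (-0.23, adjusted p = 0.0089), Slc25a27 (-0.50, adjusted p = 0.011) and Slc25a38 (-0.22, adjusted p = 0.015). These 4 did not pass with phenylephrine against vehicle in the main fit. IGF1 raised 7 carriers (7 to 9, and 6 to 7) and lowered 10 (6 to 10, and 6 to 10), with 6 at a threshold of 0.01. Phenylephrine against IGF1 gave 6 higher (4 to 8, and 4 to 6) and 10 lower (9 to 10, and 9 to 12). The share of all tested genes is not given for each alternative, so these ranges describe the carriers only. With scaling by library size only, some values for phenylephrine against vehicle reversed among the carriers and the genes picked from the lists. Of those called in this fit or in the main fit, they were Slc25a39 (-0.13, adjusted p = 0.014), Slc25a46 (-0.18, adjusted p = 0.021), Timm22 (-0.028, adjusted p = 0.65) and Tomm70a (-0.047, adjusted p = 0.4). Values called in neither fit changed sign too, as in Slc25a3 (-0.079). The shift of the median of all genes under that scaling is given with the counts of carriers.

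Samples with the same replicate number did not deviate together (correlation of deviations -0.08 to 0.02 over 9 pairs, against -0.07 to 0.11 over 18 pairs with different numbers). A lack of correlation cannot show whether samples were prepared in matched sets, and the numbers were not used as pairs in the main fit. With the replicate number as a block, 6 carriers rose and 11 fell with phenylephrine, 7 rose and 9 fell with IGF1, and 5 were higher and 10 lower with phenylephrine than with IGF1. Of all tested genes in that fit, 27.4% rose and 28.6% fell with phenylephrine, and 24.2% rose and 22.9% fell with IGF1. Between the treatments 26.7% were higher and 26.5% lower with phenylephrine. The calls that ended under the block were those of Slc25a28 with IGF1 (adjusted p = 0.051) and of Slc25a38 for phenylephrine against IGF1 (0.058). At 3 samples a group no paralog ratio could reach an exact p under 0.1. Carriers near or below 1 CPM (Slc25a21 and Slc25a45) had an SE of 0.30 to 0.41 on the log2 scale.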
